A study of Mus musculus with 35 samples.

Results

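The red cell membrane and skeleton genes described here are Slc4a1, Ank1, Sptb, Epb41, Epb42, Rhag, Rhd and Aqp1, which were taken by gene symbol from the table of counts. They are 8 of the 49671 genes in that table, and all 8 passed the filter on low counts. The RNA came from mouse bone marrow cells depleted of mature lineages, which hold the stem and progenitor cells (lin- HSPC), and 35 libraries fall into 7 groups of 5. The cells, from C57Bl/6 mice of both sexes, were infected with lentivirus and sorted for fluorescence. Empty cells were sorted for mCherry alone and cells with a fusion construct for both mCherry and the green tag, so that the gates differed. The sorted cells were grown for a week in Methocult M3434, a semisolid medium with growth factors for myeloid and erythroid cells, to which GM-CSF was added. RNA was taken after this first plating. Every group carried a vector that also encodes mCherry. The Empty group carried this vector alone. The G-NHX9 group expressed NUP98-HOXA9, a leukemia fusion protein that joins the disordered, phenylalanine-glycine (FG) rich part of a nucleoporin to the DNA-binding homeodomain of HOXA9, with a green fluorescent tag. In G-NHX9-8FA and G-NHX9-21FGAA a smaller and a larger set of residues in the FG motifs were replaced by alanine. G-NHX9-midi held a shortened FG-rich part, G-NHX9-midi-21FGAA combined the shortening with the larger set of replacements, and in G-NHX9-DDNA the homeodomain was mutated so that it binds DNA weakly. The labels give an age of 8 weeks for 32 libraries, and 9, 10 and 11 weeks for Empty replicates 4 and 5 and G-NHX9 replicate 1. The fusion protein was supplied by a virus in sorted cells and not from the gene's own promoter, which limits the groups as a model of a leukemia.

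The red cell membrane is held to a spectrin skeleton at a small number of protein complexes. Band 3 (Slc4a1), the chloride-bicarbonate exchanger, is tied to spectrin by ankyrin (Ank1) and protein 4.2 (Epb42), and the beta chain of spectrin (Sptb) meets actin at junctions held by protein 4.1 (Epb41). The Rh proteins (Rhag and Rhd) form a channel-like complex beside band 3, and aquaporin 1 (Aqp1) carries water. Most of these genes are switched on as erythroblasts mature, while protein 4.1 is made in many cell types.

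The stretch of DNA before the start of a gene is shown for the 6 of 8 genes with an entry in the RefSeq promoter table (GRCm38.p6). They are printed because 5 of the 6 genes shared the same large changes and Epb41 did not. Each line gives the 250 bases before the RefSeq start, 5′ to 3′ on the strand of the gene. The gene positions given below are from GENCODE M21, whose starts differ for Epb42, Rhag, Epb41 and Aqp1. By those positions most of the Epb42 window and a small part of the Rhag and Epb41 windows lie inside the gene. Capitals mark the 4 hexamers bound by GATA factors, on either strand: AGATAA or AGATAG, and TGATAA or TGATAG. The windows are chr2:121036878-121037127 for Epb42, chr17:40810899-40811148 for Rhag, chr4:134864286-134864535 for Rhd, chr12:76710548-76710797 for Sptb, chr6:55336049-55336298 for Aqp1 and chr4:132075314-132075563 for Epb41, with Rhag, Rhd and Aqp1 on the plus strand and the others on the minus strand.
Epb42: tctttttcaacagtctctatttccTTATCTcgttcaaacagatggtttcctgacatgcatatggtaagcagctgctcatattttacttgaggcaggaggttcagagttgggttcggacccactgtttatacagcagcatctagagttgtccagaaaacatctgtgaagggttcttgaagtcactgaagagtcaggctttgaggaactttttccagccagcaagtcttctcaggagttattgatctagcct
Rhag: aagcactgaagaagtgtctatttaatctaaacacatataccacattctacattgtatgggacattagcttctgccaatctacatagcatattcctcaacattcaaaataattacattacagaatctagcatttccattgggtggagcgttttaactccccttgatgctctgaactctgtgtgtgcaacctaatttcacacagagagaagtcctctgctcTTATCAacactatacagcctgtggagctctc
Rhd: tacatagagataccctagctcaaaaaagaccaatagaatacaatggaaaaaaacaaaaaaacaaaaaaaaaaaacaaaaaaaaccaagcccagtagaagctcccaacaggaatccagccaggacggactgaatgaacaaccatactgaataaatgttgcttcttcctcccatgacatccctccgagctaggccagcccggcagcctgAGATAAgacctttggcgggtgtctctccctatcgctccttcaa
Sptb: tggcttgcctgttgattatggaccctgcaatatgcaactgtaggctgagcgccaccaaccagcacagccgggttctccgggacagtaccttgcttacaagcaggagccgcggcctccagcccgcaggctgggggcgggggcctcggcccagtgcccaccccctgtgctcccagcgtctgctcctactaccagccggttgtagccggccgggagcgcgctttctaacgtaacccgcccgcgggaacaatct
Aqp1: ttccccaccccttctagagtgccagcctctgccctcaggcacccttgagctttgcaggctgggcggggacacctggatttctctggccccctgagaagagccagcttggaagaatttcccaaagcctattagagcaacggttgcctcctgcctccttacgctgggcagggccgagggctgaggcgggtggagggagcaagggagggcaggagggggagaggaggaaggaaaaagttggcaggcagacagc
Epb41: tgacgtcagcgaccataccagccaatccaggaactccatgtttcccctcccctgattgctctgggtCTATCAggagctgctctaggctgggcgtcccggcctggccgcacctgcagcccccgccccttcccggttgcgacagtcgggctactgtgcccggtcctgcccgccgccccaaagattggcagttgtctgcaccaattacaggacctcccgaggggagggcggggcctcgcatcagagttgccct

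A hexamer of this kind was found once in the windows of Epb42, Rhag, Rhd and Epb41, starting 226, 31, 43 and 184 bases before the RefSeq start, and in none of the letters shown for Sptb and Aqp1. Of all 32851 windows of this length in the table, 26.5% held at least 1. The pentamer CACCC, the core of the sites of Krüppel-like factors such as KLF1, was found on either strand once for Sptb, Rhag and Rhd and 3 times for Aqp1, and 52.0% of all windows held it. It overlapped none of the hexamers. The other 2 Epb41 starts in the table held neither motif. These matches describe the letters, and binding was not measured here.

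Libraries held 31559914 to 75810659 counts, and the 3 counts compatible with a count of 0 correspond to 0.0382 to 0.0996 counts per 1000000 (CPM). Levels below are CPM scaled by edgeR's TMM method. Hoxa9, whose reads may come from the fusion or from the cells' own gene, was at 0.975 ± 0.221 CPM (SD, n = 5) in Empty and higher in each library of G-NHX9, G-NHX9-8FA, G-NHX9-midi and G-NHX9-DDNA, with means of 18.9 to 96.6 CPM. It was at 3.28 ± 1.92 CPM in G-NHX9-21FGAA and 1.12 ± 0.720 CPM in G-NHX9-midi-21FGAA. The lowest libraries of these groups, at 1.00 and 0.242 CPM, were under the highest of Empty, at 1.26 CPM. Hoxa9 thus did not separate every library of either group from Empty. Stem and progenitor markers such as Kit and Cd34 were present in every group, and their 13 genes summed to 349.9 to 1045 CPM.

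In the cells with G-NHX9-8FA and G-NHX9-midi, all 8 genes were lower than in Empty, 7 of them by 8.87-fold to 62.5-fold and Epb41 by 1.25-fold and 1.23-fold. With G-NHX9 itself none of the 8 passed the test against Empty, while Epb41 was lower in all 5 pairs of the same replicate number and passed with that number as a block (log2 fold change -0.21, adjusted p = 0.034, edgeR). With G-NHX9-21FGAA, G-NHX9-midi-21FGAA and G-NHX9-DDNA the genes that passed the test were higher than in Empty, 5, 6 and 3 of the 8, by 2.24-fold to 4.01-fold. With the replicate number as a block 4, 6 and 4 genes passed. Epb41 and Aqp1 were not among them. The question of these comparisons was how the number of FG motifs and the binding to DNA bear on gene expression in these cells.

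Unless another test is named, tests are edgeR quasi-likelihood tests fitted to the 35 libraries, with Benjamini-Hochberg adjustment over the 17166 genes tested and a threshold of 0.05. Of these genes, 13.2% were lower and 13.4% higher in G-NHX9-8FA than in Empty, and 20% were lower and 20.5% higher in G-NHX9-midi. Against these shares stand 8 of 8 genes lower in both. The median log2 fold change of the 8 genes was -4.87 in G-NHX9-8FA and -4.62 in G-NHX9-midi, where the medians over all genes tested were 0.03 and 0.02. In G-NHX9, 16.9% of the genes tested were higher and 15.2% lower than in Empty. Without the block 0 of the 8 genes were called by edgeR or DESeq2 and 0 had an unadjusted p under 0.05 (edgeR), with a median of -0.16. With G-NHX9-21FGAA 14.7% of genes were higher and 12.5% lower, with G-NHX9-midi-21FGAA 9.59% and 7.32%, and with G-NHX9-DDNA 9.85% and 7.35%, beside medians of 1.37, 1.75 and 1.22 for the 8 genes. The labels do not say that libraries of a group came from separate cultures or mice, so p-values measure the spread between these libraries. In bulk RNA, fewer cells of a type and less RNA per cell cannot be told apart.

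**Figure D1:**
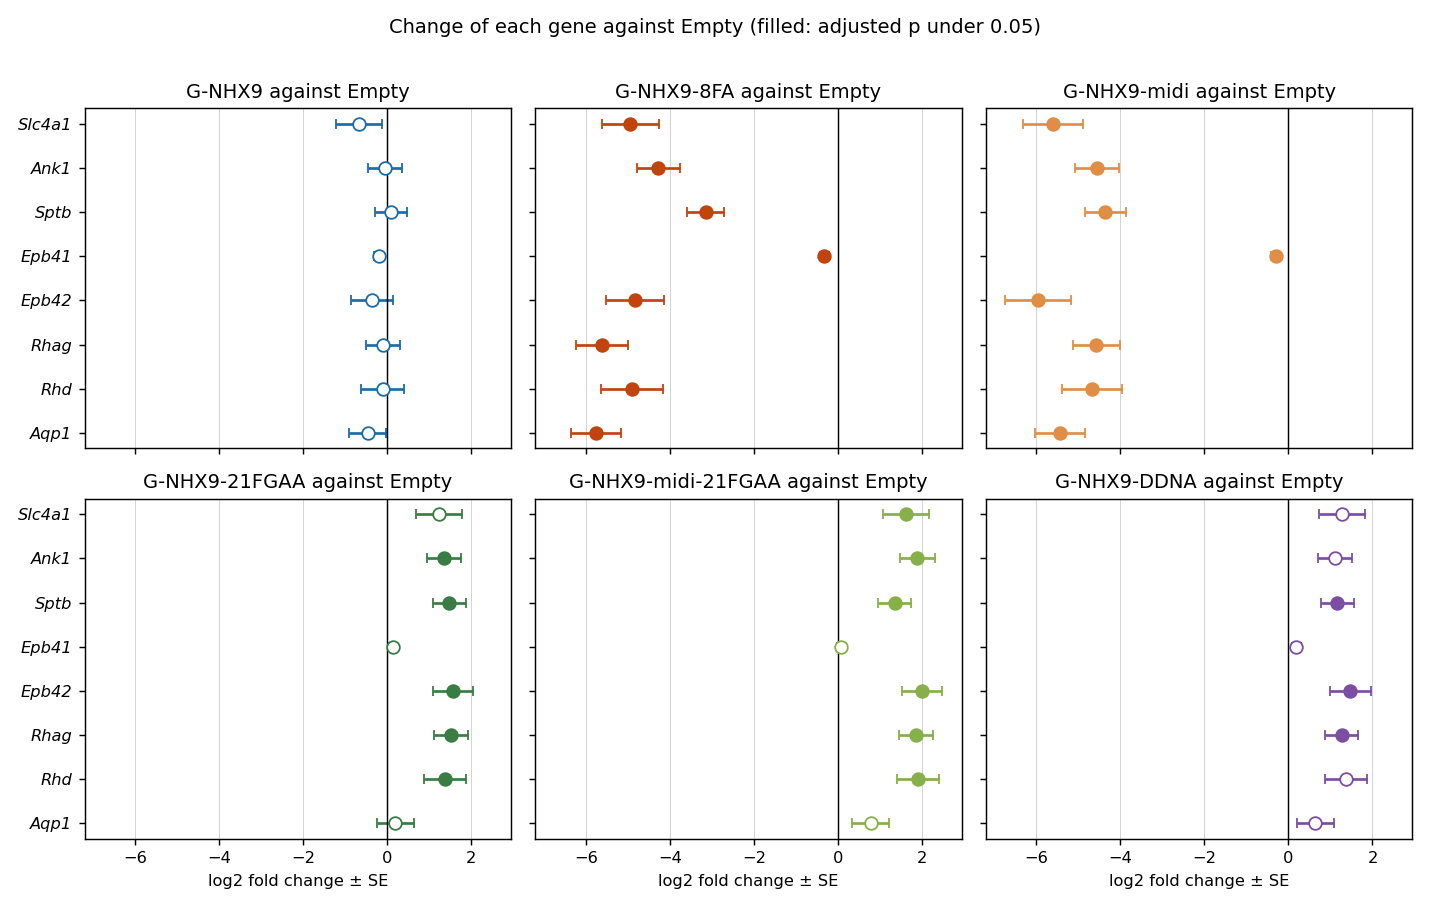
Log2 fold change of each of the 8 genes against Empty, with its standard error as a horizontal bar, in 1 panel for each of the 6 constructs and with filled points for an adjusted p under 0.05. All points lie left of 0 for G-NHX9-8FA and G-NHX9-midi, with Epb41 nearest to it at -0.32 and -0.30, and right of 0 for G-NHX9-21FGAA, G-NHX9-midi-21FGAA and G-NHX9-DDNA.

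Slc4a1 (ENSMUSG00000006574.15, chr11:102348824-102366203 on the minus strand of GRCm38) encodes band 3, the most abundant protein of the red cell membrane. Its levels in the Empty libraries, replicates 1 to 5, were 52.0, 13.2, 13.7, 12.7 and 30.1 CPM. In G-NHX9 they were 4.47, 12.5, 9.39, 13.1 and 36.8 CPM. The G-NHX9 libraries overlapped those of Empty, and the difference of -0.68 ± 0.54 (log2, SE) did not pass the test (adjusted p = 0.38). In G-NHX9-8FA the 5 libraries were at 0.210, 1.63, 0.582, 0.796 and 0.611 CPM, from 9 to 89 counts. In G-NHX9-midi they were at 0.179, 1.14, 0.102, 0.776 and 0.474 CPM, from 5 to 38 counts. Every library of both groups was below every library of Empty, as held for all 8 genes. Of all genes tested, 8.75% were arranged in this way in G-NHX9-8FA and 13.9% in G-NHX9-midi. Slc4a1 was thus 30.8-fold lower than in Empty with G-NHX9-8FA (log2 fold change -4.95 ± 0.68, adjusted p = 1.3e-06) and 48.6-fold lower with G-NHX9-midi (-5.60 ± 0.72, adjusted p = 1.5e-07).

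The Slc4a1 libraries of G-NHX9-21FGAA were at 14.2, 48.8, 17.9, 110.1 and 94.9 CPM, and those of G-NHX9-midi-21FGAA at 29.7, 78.3, 75.5, 85.0 and 107.3 CPM. In G-NHX9-DDNA they were at 53.4, 75.5, 97.5, 28.2 and 39.0 CPM. Some libraries of each of these groups lay within the range of Empty, whose replicate 1 was high. Slc4a1 rose against Empty in G-NHX9-midi-21FGAA, by 3.09-fold (1.63 ± 0.55, adjusted p = 0.038). In G-NHX9-21FGAA and G-NHX9-DDNA the differences of 1.23 ± 0.54 and 1.27 ± 0.54 had adjusted p of 0.092 and 0.10. The call in G-NHX9-midi-21FGAA was lost without any 1 of Empty replicates 2, 3, 4 and 5 or of G-NHX9-midi-21FGAA replicates 2, 3, 4 and 5, with adjusted p from 0.053 to 0.097.

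Ank1 (ENSMUSG00000031543.18, chr8:22974844-23150497, plus strand) encodes ankyrin, the adaptor between band 3 and spectrin. In Empty it was at 11.8, 9.37, 4.41, 3.59 and 6.52 CPM, and in G-NHX9 at 2.08, 4.80, 4.29, 5.44 and 18.1 CPM. These overlapped, with replicate 5 the highest of G-NHX9. In G-NHX9-8FA it was at 0.233, 0.476, 0.345, 0.488 and 0.275 CPM and in G-NHX9-midi at 0.179, 0.240, 0.286, 0.428 and 0.391 CPM, the tightest of the low groups among the 7 genes with large changes. Ank1 was 19.3-fold lower with G-NHX9-8FA (-4.27 ± 0.51, adjusted p = 1.3e-07) and 23.4-fold lower with G-NHX9-midi (-4.55 ± 0.53, adjusted p = 2.2e-08). In G-NHX9-21FGAA it was at 11.3, 13.5, 9.79, 25.9 and 31.2 CPM and in G-NHX9-midi-21FGAA at 10.2, 27.3, 23.5, 30.1 and 41.7 CPM, with 3 and 4 of 5 libraries above all of Empty. It rose 2.56-fold with G-NHX9-21FGAA (1.36 ± 0.41, adjusted p = 0.012) and 3.71-fold with G-NHX9-midi-21FGAA (1.89 ± 0.41, adjusted p = 0.0023). The former call was lost without G-NHX9-21FGAA replicate 5 (adjusted p = 0.057). In G-NHX9-DDNA, at 16.8, 16.7, 19.6, 11.4 and 12.8 CPM, 4 of 5 libraries were above all of Empty, with a difference of 1.11 ± 0.41 and an adjusted p of 0.055. That value was 0.025 with the replicate number as a block and 0.038 by DESeq2. The antisense gene Gm15816 covers 2173 exonic bases of Ank1, and whether reads were counted by strand is not given in the sources used here.

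Epb42 (ENSMUSG00000023216.13, chr2:121017891-121037072, minus strand) encodes protein 4.2, a relative of the transglutaminases without enzyme activity that binds band 3 and ankyrin. Its Empty libraries held 226, 101, 75, 38 and 93 counts, or 5.42, 2.32, 1.73, 1.26 and 2.85 CPM. In G-NHX9-8FA they held 1, 6, 2, 10 and 1 counts, and in G-NHX9-midi 6, 1, 0, 0 and 2, where the libraries with 0 allow levels up to 0.0614 and 0.0802 CPM. All were below Empty. Epb42 was 28.6-fold lower with G-NHX9-8FA (-4.84 ± 0.69, adjusted p = 2.3e-06) and 62.5-fold lower with G-NHX9-midi (-5.97 ± 0.78, adjusted p = 2e-07). In G-NHX9-21FGAA it was at 2.76, 5.98, 2.97, 16.6 and 11.9 CPM, in G-NHX9-midi-21FGAA at 4.16, 11.2, 11.4, 9.88 and 17.98 CPM and in G-NHX9-DDNA at 7.63, 9.48, 13.01, 3.26 and 4.46 CPM. In these 3 groups Epb42 rose by 2.95-fold, 4.01-fold and 2.77-fold (1.56 ± 0.48, 2.00 ± 0.49 and 1.47 ± 0.48), with adjusted p of 0.015, 0.0052 and 0.033. The 3 comparisons share the Empty libraries. The call in G-NHX9-21FGAA was lost without its replicate 4 (adjusted p = 0.099).

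**Figure D2:**
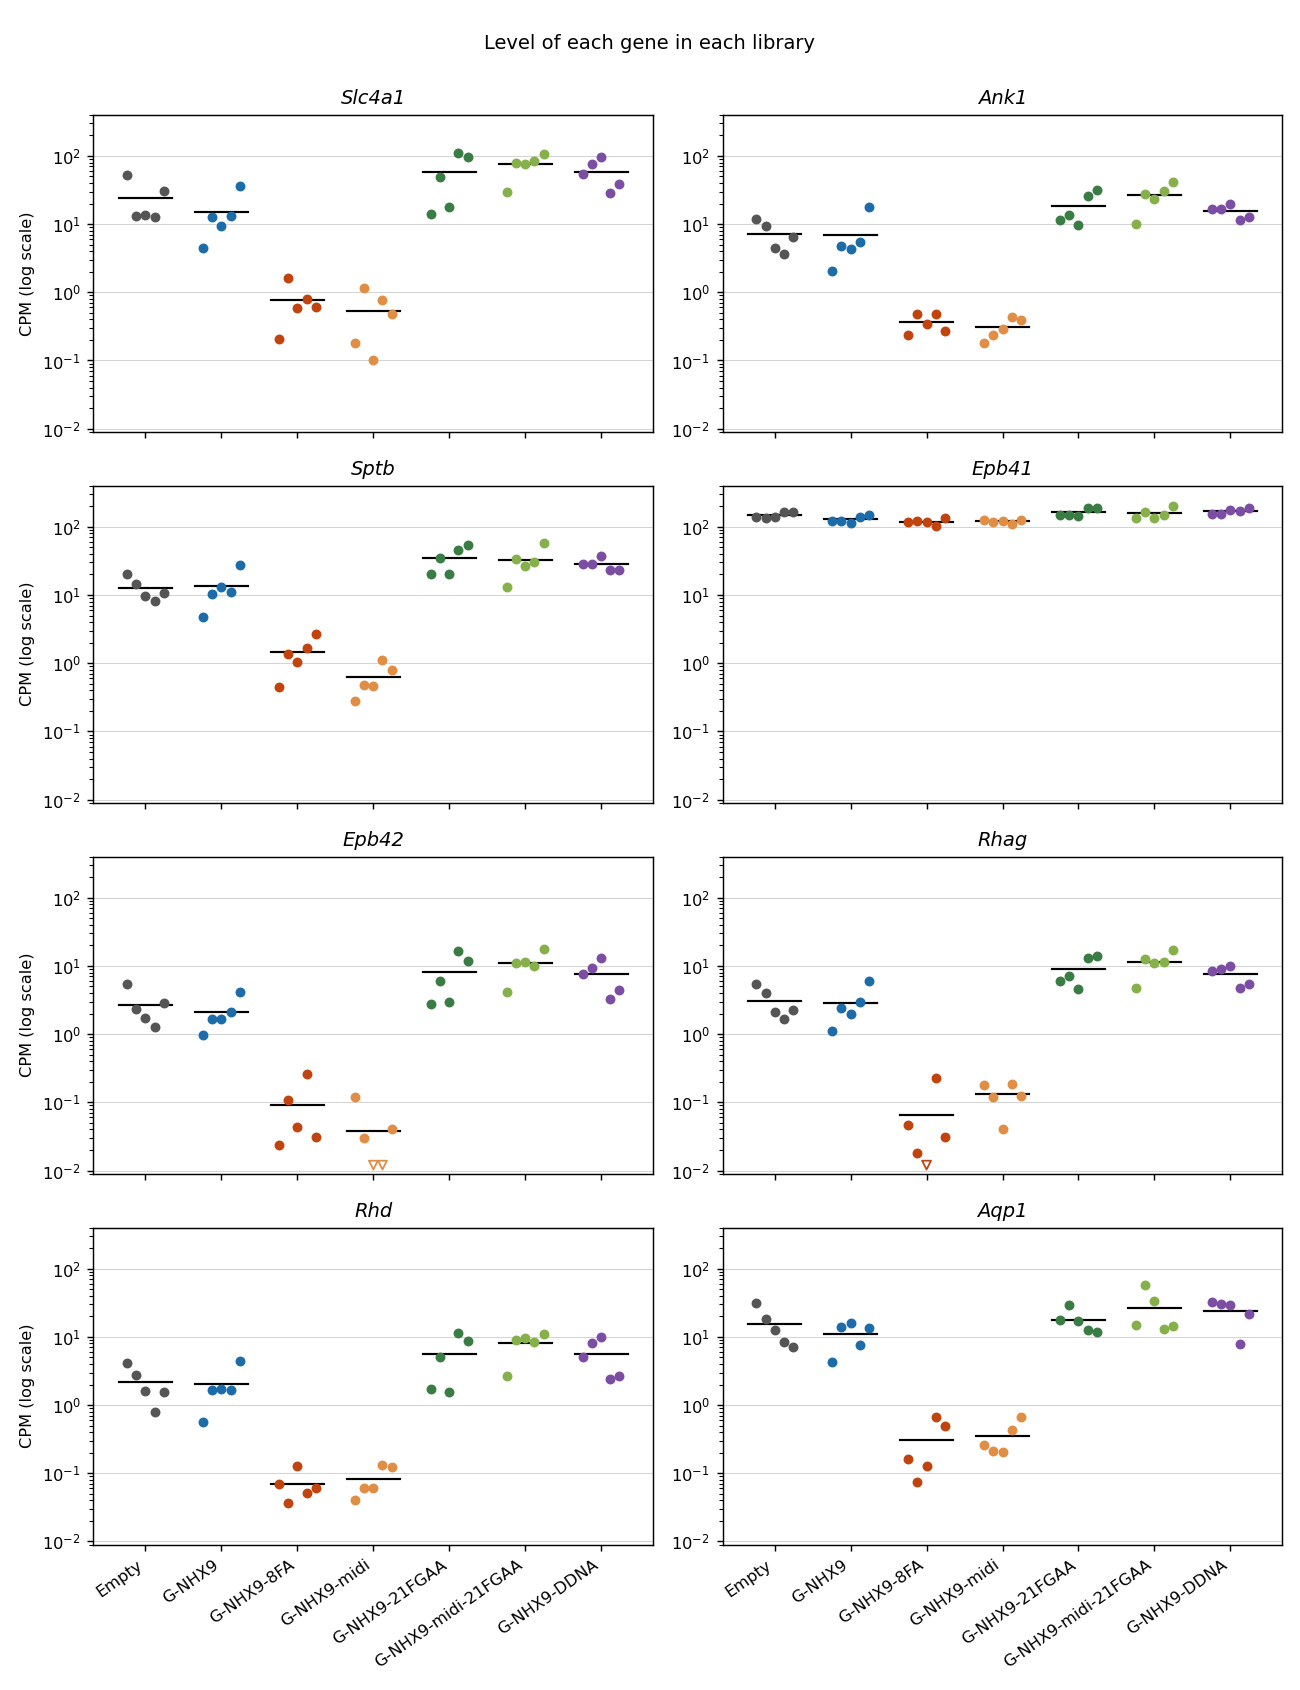
Level of each gene in each of the 35 libraries as CPM on a logarithmic axis, 1 panel per gene, with points in the order of the replicate number, a line at the mean of each group and open triangles at the lower edge for libraries with 0 counts. Epb41 stays between 104 and 202 CPM across all groups, while the other 7 genes have 1 tier for Empty and G-NHX9, a far lower tier for G-NHX9-8FA and G-NHX9-midi, and, for each of the 7, means above that of Empty in G-NHX9-21FGAA, G-NHX9-midi-21FGAA and G-NHX9-DDNA.

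Sptb (ENSMUSG00000021061.15, chr12:76580488-76710547, minus strand) encodes the beta chain of erythroid spectrin, the main rod of the skeleton. In Empty it was at 20.1, 14.4, 9.71, 8.20 and 10.6 CPM. In G-NHX9-8FA it was at 0.443, 1.35, 1.06, 1.69 and 2.69 CPM and in G-NHX9-midi at 0.279, 0.480, 0.470, 1.10 and 0.783 CPM. Replicate 1 was the lowest in both. Sptb was 8.87-fold lower with G-NHX9-8FA (-3.15 ± 0.44, adjusted p = 1.8e-06), the smallest fall among the genes other than Epb41, and 20.5-fold lower with G-NHX9-midi (-4.36 ± 0.48, adjusted p = 9.4e-09). The difference between these groups, -1.21 ± 0.49, did not pass the test (adjusted p = 0.19).

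The G-NHX9-21FGAA libraries of Sptb were at 20.3, 34.4, 20.2, 46.2 and 54.6 CPM and those of G-NHX9-DDNA at 28.6, 28.02, 37.9, 23.5 and 23.6 CPM. All 5 libraries of both groups were above every library of Empty, which held for no other of the 8 genes. In G-NHX9-21FGAA this was nearly a tie, with replicate 3 at 20.16 CPM beside 20.06 CPM in Empty replicate 1. The share of all genes tested that were arranged in this way was not counted. Sptb rose 2.78-fold in G-NHX9-21FGAA (1.48 ± 0.39, adjusted p = 0.0052) and 2.24-fold in G-NHX9-DDNA (1.17 ± 0.39, adjusted p = 0.036). In G-NHX9-midi-21FGAA, at 13.02, 34.3, 26.3, 30.8 and 57.1 CPM, it rose 2.56-fold (1.36 ± 0.39, adjusted p = 0.016), a call that was lost without replicate 5 of that group (adjusted p = 0.072).

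Epb41 (ENSMUSG00000028906.16, chr4:131923413-132075321, minus strand) encodes protein 4.1, which strengthens the bond of spectrin to actin. Its levels in Empty were 140.8, 136.1, 138.5, 166.1 and 163.9 CPM. In G-NHX9-8FA they were 116.2, 123.6, 116.2, 104.3 and 135.9 CPM, and in G-NHX9-midi 127.5, 118.7, 121, 110.8 and 127.8 CPM. The highest library of G-NHX9-8FA was just under the lowest of Empty, at 135.9 beside 136.1 CPM, and that of G-NHX9-midi was farther below it. Epb41 was lower by 1.25-fold in G-NHX9-8FA (-0.32 ± 0.10, adjusted p = 0.020) and by 1.23-fold in G-NHX9-midi (-0.30 ± 0.10, adjusted p = 0.021). Both calls depended on the scaling and were lost without TMM (adjusted p = 0.085 and 0.23), which moved the median of all genes by 0.0468 and 0.122 in these comparisons. They were also lost without a filter on low counts (0.058 and 0.076), without Empty replicate 4 (0.050 and 0.058), without Empty replicate 5 (0.053 and 0.058) and without replicate 4 of the construct's group (0.055 and 0.056). With G-NHX9, at 112.8 to 151.4 CPM, the difference of -0.20 ± 0.10 had an adjusted p of 0.14, which was 0.034 with the replicate number as a block. Epb41 did not pass the test against Empty in G-NHX9-21FGAA (0.13 ± 0.10, adjusted p = 0.37), G-NHX9-midi-21FGAA (0.08 ± 0.10, adjusted p = 0.66) or G-NHX9-DDNA (0.19 ± 0.10, adjusted p = 0.22). Without TMM the difference in G-NHX9-21FGAA was 0.32 with an adjusted p of 0.038. The predicted genes Gm13063 and Gm10300 on the other strand cover 91 and 142 exonic bases of Epb41.

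The spread of Epb41 within groups was also small, with a coefficient of variation (CV, the SD as a percent of the mean) of 5.80% to 17.4%, against 20.7% to 144.3% for the other 7 genes. To set different genes side by side, levels were divided by the kilobases of exon over all annotated transcripts of a gene. This length can exceed that of any 1 transcript, which lowers the values of genes with many forms, so that the order is approximate. Epb41 was at 9.35 CPM per kilobase in Empty, Aqp1 at 5.89, Slc4a1 at 4.98, Rhd at 1.35, Rhag at 1.33, Sptb at 1.04, Ank1 at 0.528 and Epb42 at 0.501. In G-NHX9-midi Epb41 was at 7.60 CPM per kilobase and the other 7 at 0.00705 to 0.134. In G-NHX9-midi-21FGAA Slc4a1, at 15.4, and Aqp1, at 10.2, were above Epb41, at 9.87.

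The log2 ratio of Epb41 to Sptb in each library, which does not depend on how libraries are scaled, was 2.81, 3.24, 3.83, 4.34 and 3.95 in Empty. In G-NHX9-8FA it was 8.00, 6.50, 6.77, 5.93 and 5.65, and in G-NHX9-midi 8.79, 7.91, 7.98, 6.64 and 7.33. Every library of both groups was above every library of Empty. The mean was higher than in Empty by 2.94 with G-NHX9-8FA and by 4.10 with G-NHX9-midi (two-sided exact permutation test, p = 0.00794 for both, the smallest that 5 against 5 libraries allow). It was lower than in Empty by 1.31 with G-NHX9-21FGAA, by 1.21 with G-NHX9-midi-21FGAA and by 1.03 with G-NHX9-DDNA (p = 0.0238 for each, same exact test). With G-NHX9 it was 3.49 ± 0.83 beside 3.63 ± 0.61 in Empty (SD, n = 5, p = 0.778, exact permutation test). After adjustment over 36 such tests the values were 0.143, 0.143, 0.171, 0.171, 0.171 and 0.903, and none of the 36 passed 0.05. The lowest p that the design allows is too large for fewer than 6 tests at that value to pass, so that the count of 0 says little.

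**Figure D3:**
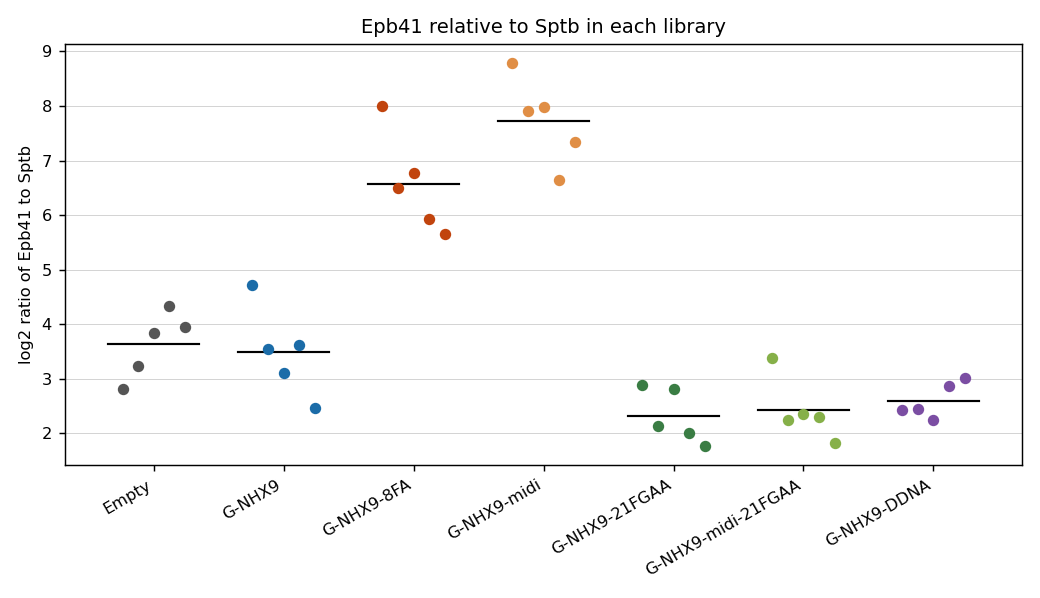
Log2 ratio of Epb41 to Sptb counts in each library by group, with points in the order of the replicate number and a line at each mean. The libraries of G-NHX9-8FA (5.65 to 8.00) and G-NHX9-midi (6.64 to 8.79) lie above all libraries of the other groups, of which the highest is 4.72.

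The remaining 30 ratio tests compared Ank1, Epb42, Aqp1 and Rhag with Slc4a1, and Rhd with Rhag, in each construct against Empty. Their smallest p was 0.0952 (exact permutation test), for Rhag to Slc4a1 in G-NHX9-midi. In G-NHX9-midi-21FGAA the log2 ratio of Ank1 to Slc4a1 was -1.52 ± 0.11 and that of Rhag to Slc4a1 -2.72 ± 0.12 (SD, n = 5), while the level of Slc4a1 ranged 3.61-fold between the same libraries. In the low groups the ratios were spread far wider, for example -3.82 ± 2.01 for Rhag to Slc4a1 in G-NHX9-8FA, where Rhag had 0 to 9 counts per library.

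Rhag (ENSMUSG00000023926.7, chr17:40811126-40840754, plus strand) encodes the Rh-associated glycoprotein, without which the Rh complex does not reach the membrane. In Empty it was at 5.52, 4.04, 2.10, 1.66 and 2.23 CPM. The G-NHX9-8FA libraries held 2, 1, 0, 9 and 1 counts and the G-NHX9-midi libraries 9, 4, 2, 7 and 6. These are near the limit of detection, and the library with 0 counts allows a level of up to 0.0647 CPM. Rhag was 49.04-fold lower with G-NHX9-8FA (-5.62 ± 0.62, adjusted p = 2.6e-08) and 23.8-fold lower with G-NHX9-midi (-4.57 ± 0.55, adjusted p = 4.9e-08), a difference between these groups that was not detectable at this depth (1.04 ± 0.86, adjusted p = 0.63). It was at 6.04, 7.14, 4.64, 12.97 and 13.97 CPM in G-NHX9-21FGAA, 4 of 5 libraries above all of Empty. In G-NHX9-midi-21FGAA it was at 4.79, 12.5, 10.9, 11.5 and 17.4 CPM and in G-NHX9-DDNA at 8.49, 8.99, 9.94, 4.78 and 5.38 CPM, with 4 and 3 libraries above all of Empty. In G-NHX9-21FGAA Rhag rose 2.86-fold (1.52 ± 0.40, adjusted p = 0.0053), in G-NHX9-midi-21FGAA 3.65-fold (1.87 ± 0.41, adjusted p = 0.0023) and in G-NHX9-DDNA 2.40-fold (1.26 ± 0.40, adjusted p = 0.028).

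Rhd (ENSMUSG00000028825.7, chr4:134864536-134896172, plus strand) encodes the Rh blood group protein itself. In Empty it was at 4.10, 2.73, 1.59, 0.797 and 1.53 CPM, and in G-NHX9-8FA and G-NHX9-midi no library held more than 6 counts. It was 30-fold and 25.4-fold lower in these groups (-4.91 ± 0.74 and -4.67 ± 0.72, adjusted p = 5.2e-06 and 3.2e-06). In G-NHX9-21FGAA it was at 1.74, 4.99, 1.55, 11.4 and 8.59 CPM, with replicates 1 and 3 inside the range of Empty. It rose there by 2.61-fold (1.38 ± 0.50, adjusted p = 0.038), a call lost without any 1 of Empty replicates 3, 4 and 5 (adjusted p = 0.081, 0.099 and 0.083) or of replicates 4 and 5 of the group itself (0.19 and 0.10). In G-NHX9-midi-21FGAA, at 2.62, 8.99, 9.73, 8.34 and 10.9 CPM, Rhd rose 3.74-fold (1.90 ± 0.51, adjusted p = 0.0094). In G-NHX9-DDNA, at 5.04, 8.12, 9.91, 2.38 and 2.69 CPM, 3 libraries were above all of Empty and the difference of 1.38 ± 0.50 had an adjusted p of 0.055.

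Aqp1 (ENSMUSG00000004655.5, chr6:55336432-55348555, plus strand) encodes the water channel of the red cell, which endothelium and other tissues also make. In Empty it was at 30.9, 18.3, 12.7, 8.37 and 7.10 CPM and in G-NHX9 at 4.31, 14.2, 16.2, 7.69 and 13.6 CPM. In G-NHX9-8FA it was at 0.163, 0.0732, 0.129, 0.668 and 0.489 CPM and in G-NHX9-midi at 0.259, 0.210, 0.205, 0.428 and 0.659 CPM. All 10 of these libraries were below 1 CPM. Aqp1 was 54.1-fold lower with G-NHX9-8FA (-5.76 ± 0.61, adjusted p = 1.1e-08), the largest fall of the 8 genes in that comparison, and 43.3-fold lower with G-NHX9-midi (-5.44 ± 0.59, adjusted p = 6e-09). In G-NHX9-21FGAA it was at 17.8, 28.9, 17.1, 12.8 and 11.7 CPM, all inside the range of Empty, and the difference was 0.19 ± 0.44 (adjusted p = 0.80). G-NHX9-midi-21FGAA, at 14.99, 57.7, 33.4, 12.8 and 14.5 CPM, and G-NHX9-DDNA, at 32.2, 29.96, 28.9, 7.89 and 21.7 CPM, did not pass the test either (0.78 ± 0.44 and 0.64 ± 0.44, adjusted p = 0.23 and 0.34).

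Within groups Aqp1 did not follow the other genes closely. As a description over 35 libraries, the Pearson correlation of log2 CPM after taking off each group's mean was 0.571 to 0.843 between any 2 of Slc4a1, Ank1, Sptb, Epb42, Rhag and Rhd. It was 0.209 to 0.503 between Aqp1 and these 6, 0.206 to 0.397 between Epb41 and these 6, and -0.277 between Aqp1 and Epb41. The values of a library share its depth and scaling, and the low groups rest on few counts. In G-NHX9-21FGAA, replicates 4 and 5 were the highest for Slc4a1 (110.1 and 94.9 CPM) and the lowest for Aqp1 (12.8 and 11.7 CPM).

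**Figure D4:**
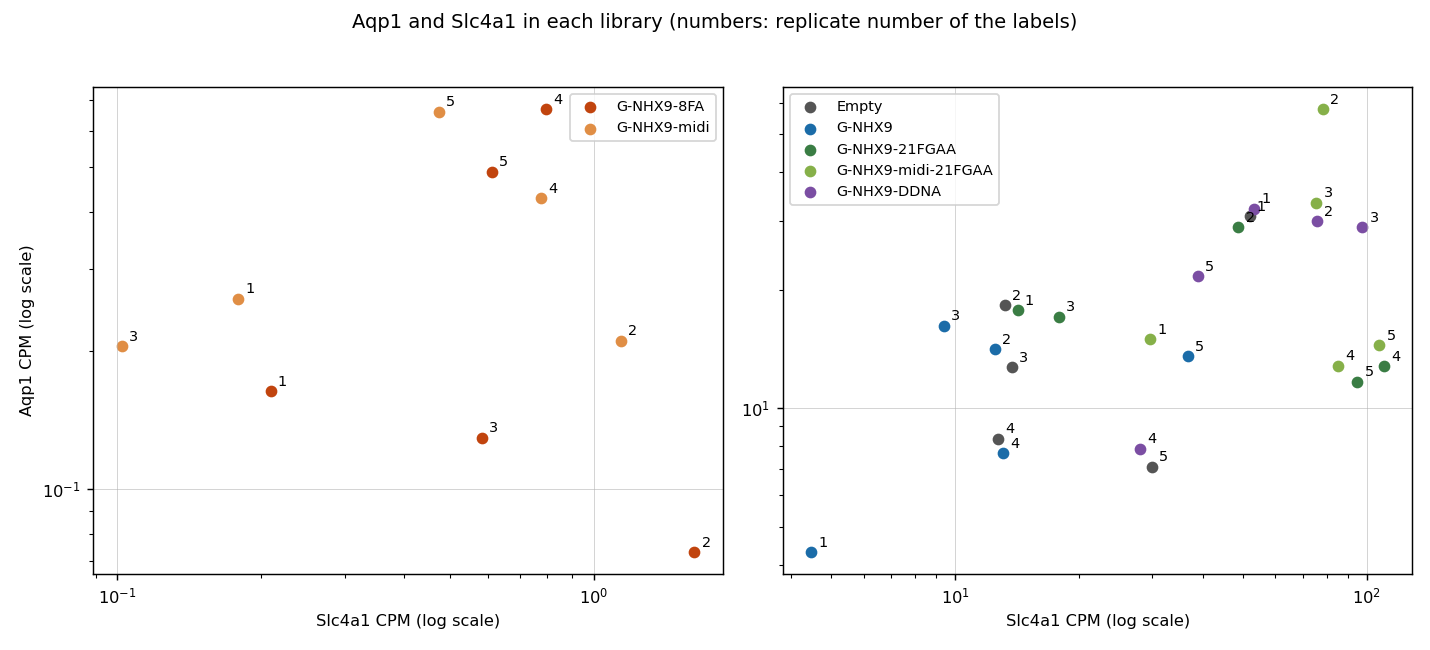
Aqp1 against Slc4a1 in each library as CPM on logarithmic axes, the groups with low levels on the left and the other 5 groups on the right, with each point numbered by its replicate. Among the libraries with over 80 CPM of Slc4a1, replicates 4 and 5 of G-NHX9-21FGAA and G-NHX9-midi-21FGAA hold 11.7 to 14.5 CPM of Aqp1 and replicate 3 of G-NHX9-DDNA 28.9 CPM.

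In the order of group means, 6 of the 7 genes with large changes, all but Sptb, had G-NHX9-midi-21FGAA first, and each of the 7 had Empty and G-NHX9 in the middle and G-NHX9-8FA and G-NHX9-midi last. The 1 step at which neighbouring groups did not overlap was, for each of these 7 genes, the step down to the pair of low groups. How many of all genes tested have such a step was not counted. For Epb41 all neighbours overlapped. Which of the low groups came last varied by gene, with G-NHX9-midi last for Slc4a1, Ank1, Sptb and Epb42 and G-NHX9-8FA last for Rhag, Rhd and Aqp1. Between those groups 0 of the 8 genes passed the test by edgeR or DESeq2, where 4.25% of the genes tested did in either direction. Sptb, at an unadjusted p of 0.0203, was the 1 gene under 0.05.

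The constructs were also compared with G-NHX9. With G-NHX9-8FA and G-NHX9-midi 7 genes fell, by 9.40-fold for Sptb to 45.4-fold for Rhag and by 21.7-fold for Sptb to 48.5-fold for Epb42, where 8.04% and 11.2% of the genes tested were lower. Epb41 did not pass (-0.12 ± 0.10 and -0.09 ± 0.10, adjusted p = 0.50 and 0.57). With G-NHX9-21FGAA and G-NHX9-DDNA 7 genes rose, where 8.91% and 10.7% of the genes tested were higher, and Aqp1 did not pass (0.66 ± 0.44 and 1.11 ± 0.45, adjusted p = 0.38 and 0.073). The highest of these rises were those of Slc4a1 and Epb42, which rose 3.75-fold and 3.80-fold in G-NHX9-21FGAA and 3.85-fold and 3.58-fold in G-NHX9-DDNA. Epb41 passed in both, at 1.27-fold and 1.31-fold (0.34 ± 0.10 and 0.39 ± 0.10, adjusted p = 0.020 and 0.0058), and in G-NHX9-DDNA all 5 libraries, from 153.2 CPM upward, were above all of G-NHX9. These comparisons share their G-NHX9 libraries.

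Adding the larger set of replacements to the shortened protein gave the widest differences. All 8 genes passed the test as higher in G-NHX9-midi-21FGAA than in G-NHX9-midi, where 21% of the genes tested did. For each of the 8, every library of G-NHX9-midi-21FGAA was also above every library of G-NHX9-midi. The share of all genes arranged in this way was not counted. The fold was 250.7 for Epb42 (7.97 ± 0.76, adjusted p = 3.6e-10), 150.1 for Slc4a1 (7.23 ± 0.75, adjusted p = 1.9e-09), 95.1 for Rhd, 86.9 for Rhag, 86.8 for Ank1, 74.5 for Aqp1 and 52.5 for Sptb. For Epb41 it was 1.30 (0.38 ± 0.10, adjusted p = 0.0037). G-NHX9-21FGAA and G-NHX9-midi-21FGAA, which carry the same replacements in the longer and the shortened protein, differed in 0 of the 8 genes by edgeR or DESeq2, with log2 differences of -0.60 to 0.12 and standard errors of 0.10 to 0.53. In either direction 3.01% of the genes tested passed in this comparison, and none of the 8 genes had an unadjusted p under 0.05.

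Many of the rises over Empty and G-NHX9 depended on single libraries. With G-NHX9-midi-21FGAA against Empty 4 to 6 genes were called when a library was left out. The calls of Ank1, Epb42, Rhag and Rhd were kept there without any 1 library. Against Empty in G-NHX9-21FGAA those of Sptb and Rhag were kept in the same way. In G-NHX9-21FGAA the number of genes higher than in Empty went from 5 to 3 without its replicate 4 or its replicate 5, and the number higher than in G-NHX9 from 7 to 4 without either. In G-NHX9-DDNA the 3 calls against Empty (Sptb, Epb42 and Rhag) became 6 without Empty replicate 1, 1 without Empty replicate 2 and 0 without any 1 of Empty replicates 3, 4 and 5 or of replicates 1, 2 and 3 of G-NHX9-DDNA. The adjusted p of the lost calls were 0.053 to 0.12. The 7 calls of G-NHX9-DDNA against G-NHX9 became 4 without any 1 of G-NHX9 replicates 1, 2, 3 and 4 or of G-NHX9-DDNA replicates 2 and 3, with Ank1, Sptb and Rhd lost each time (adjusted p = 0.056 to 0.11). The falls with G-NHX9-8FA and G-NHX9-midi, leaving Epb41 aside, were called without any 1 library.

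Other genes of the red cell membrane and skeleton were counted from a list of 36, all tested. Against Empty 18 were lower and 2 higher with G-NHX9-8FA, 19 lower and 3 higher with G-NHX9-midi, and 4 lower and 5 higher with G-NHX9. With G-NHX9-21FGAA 19 were higher and 4 lower, with G-NHX9-midi-21FGAA 21 and 2, and with G-NHX9-DDNA 13 and 3. The medians of the list were -0.49, -0.69, -0.07, 0.87, 0.71 and 0.75 in this order. Of all genes tested, 13.2%, 20% and 15.2% were lower with G-NHX9-8FA, G-NHX9-midi and G-NHX9. With G-NHX9-21FGAA, G-NHX9-midi-21FGAA and G-NHX9-DDNA 14.7%, 9.59% and 9.85% of all genes tested were higher. Add2 (beta adducin), which caps actin at the junctions, fell with G-NHX9-8FA and G-NHX9-midi (-4.22 ± 0.48 and -4.23 ± 0.48) and rose in G-NHX9-21FGAA, G-NHX9-midi-21FGAA and G-NHX9-DDNA (1.65 ± 0.37, 2.03 ± 0.37 and 1.44 ± 0.37). Kel, the Kell blood group antigen, likewise fell (-4.79 ± 0.65 and -5.13 ± 0.67) and rose (1.51 ± 0.44, 1.85 ± 0.44 and 1.24 ± 0.44).

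Tmod1, tropomodulin, which caps the other end of the actin filament, fell in both low groups (-2.70 ± 0.30 and -3.03 ± 0.30). Dmtn (dematin), at 0.581 CPM in Empty, did not pass in either low group but rose in G-NHX9-21FGAA, G-NHX9-midi-21FGAA and G-NHX9-DDNA (2.15 ± 0.53, 2.60 ± 0.53 and 1.88 ± 0.53). Cldn13 was at 2.88 CPM in Empty and at 0 counts in all 5 G-NHX9-midi libraries, which makes it at least 209-fold lower by the limit of 3 counts over the group. The highest log2 fold changes of the list in G-NHX9-midi were those of Slc16a1 (a lactate carrier), Xk and Mpp1 (p55, which binds protein 4.1), at 1.01 ± 0.13, 0.60 ± 0.25 and 0.48 ± 0.10, of which Slc16a1 and Mpp1 passed. Mpp1, at 246.8 CPM in Empty, was higher with G-NHX9, G-NHX9-8FA and G-NHX9-midi (adjusted p = 0.033, 9.1e-04 and 1.5e-04), which is opposite in sign to Epb41 in the same comparisons.

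Of 36 paralogs of the 8 genes, 27 were tested. Against Empty 5 were higher and 4 lower with G-NHX9-8FA and 4 higher and 6 lower with G-NHX9-midi, with medians of -0.20 and -0.27. These counts are near the shares of all genes tested, 13.4% higher and 13.2% lower with G-NHX9-8FA and 20.5% and 20% with G-NHX9-midi. The protein 4.1 relatives Epb41l1 and Epb41l3 fell with G-NHX9-midi (-2.24 ± 0.21 and -2.12 ± 0.33) and Epb41l4b rose from 0.382 to 4.04 CPM (3.42 ± 0.29, adjusted p = 3.4e-11). Tgm3, a transglutaminase related to Epb42, rose from 0.0946 to 11.6 CPM (6.90 ± 0.53, adjusted p = 4.7e-12), and the water channel Aqp8 from 2.76 to 8.84 CPM (1.68 ± 0.51, adjusted p = 0.0082). Tgm5, the lowest of the list by fold change, was at 0.0370 CPM in Empty and did not pass. With G-NHX9, G-NHX9-21FGAA, G-NHX9-midi-21FGAA and G-NHX9-DDNA 3, 7, 4 and 4 paralogs were higher and 5, 4, 4 and 5 lower.

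By likeness over the 35 libraries, as a description with a Pearson correlation of log2 CPM among the 10307 or 10308 genes that averaged 5 CPM or more, Slc4a1 was nearest to Alas2 (r = 0.994), which begins heme synthesis in erythroid cells, and to the alpha globin genes Hba-a1 (0.990) and Hba-a2 (0.985). Alas2 was at 12.2 CPM in Empty, 0.320 in G-NHX9-midi and 32.7 in G-NHX9-midi-21FGAA. Ank1 was nearest to Add2 (0.987), Ermap (0.984) and Hemgn (0.982), and Sptb to Hemgn (0.983), Klf1 (0.983) and Ank1 (0.979). Among the 3 nearest, Rhag had Add2 (0.989) and Ermap (0.982), Epb42 had Add2 (0.981) and Ank1 (0.980), and Rhd had Ank1 (0.983) and Add2 (0.973). Among the 3 genes nearest to Aqp1 were Add2 (0.950) and Klf1 (0.944). Each of these genes is erythroid or a member of the skeleton. Epb41 had lower values and other neighbours, Ube2o (0.903), Ston2 (0.895) and Ubn1 (0.892). By Spearman correlation 9 of the 24 nearest genes stayed among the 3 nearest. The 35 points of each correlation include the low groups.

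Markers of other cells were counted in the same comparisons with Empty. Of all genes tested, 13.4% were higher and 13.2% lower with G-NHX9-8FA, 20.5% and 20% with G-NHX9-midi, and 16.9% and 15.2% with G-NHX9. The shares were 14.7% and 12.5% with G-NHX9-21FGAA, 9.59% and 7.32% with G-NHX9-midi-21FGAA, and 9.85% and 7.35% with G-NHX9-DDNA. Several counts below lie near these shares, such as those of neutrophil markers with G-NHX9-midi and of macrophage markers with G-NHX9-midi-21FGAA. Of 24 erythroid genes outside the membrane, such as globins and heme enzymes, 14 were lower and 1 higher with G-NHX9-8FA than in Empty. With G-NHX9-midi 14 were lower and 3 higher. With G-NHX9-21FGAA, G-NHX9-midi-21FGAA and G-NHX9-DDNA 16, 13 and 10 were higher and 1, 0 and 1 lower. Their summed level was 918.7 to 1439.6 CPM in Empty, 633.8 to 810.3 with G-NHX9-8FA, 687.9 to 891.1 with G-NHX9-midi and 1287 to 2900.5 with G-NHX9-midi-21FGAA. All 12 megakaryocyte and platelet markers, of the lineage closest to the erythroid one, were lower with G-NHX9-8FA and G-NHX9-midi, with sums of 497.1 to 573.4 and 210.1 to 400.2 CPM beside 1116 to 2009 in Empty. Eosinophil markers, 8 of 9 lower in both and 1 higher with G-NHX9-midi, summed to 77.1 to 298.4 and 44.2 to 128.5 CPM beside 1389 to 1929 in Empty. Mast cell and basophil markers, 9 of 11 lower in both, were also 8 of 11 lower with G-NHX9. Their sums with G-NHX9, 775.7 to 1094 CPM, overlapped those with G-NHX9-8FA. Eosinophil markers were 5 of 9 lower with G-NHX9 and megakaryocyte markers 5 of 12, with 0 higher in either list. Of the 24 erythroid genes 4 were higher and 2 lower there. None of the 8 genes of the red cell membrane passed the test against Empty in G-NHX9 without the block. Neutrophil markers were 8 of 14 higher with G-NHX9-8FA, and 4 higher and 3 lower with G-NHX9-midi, with sums of 15845 to 35128 and 10662 to 22769 CPM beside 9094 to 13382 in Empty. Macrophage markers were 4 lower and 2 higher of 14 with G-NHX9-8FA and 9 lower and 2 higher with G-NHX9-midi, with sums of 12898 to 26501 and 8745 to 19329 CPM beside 33149 to 45455 in Empty. Their sums were below those of Empty in every library of the other constructs too, at 7057 to 18009 CPM with G-NHX9, 13426 to 21766 with G-NHX9-21FGAA, 22076 to 28168 with G-NHX9-midi-21FGAA and 18272 to 24444 with G-NHX9-DDNA, where 6, 5, 1 and 4 of the 14 were lower and 4, 0, 0 and 0 higher. Of 13 stem and progenitor markers 8 were higher and 1 lower with G-NHX9, 5 and 3 with G-NHX9-8FA, 6 and 4 with G-NHX9-midi, 9 and 0 with G-NHX9-21FGAA, 4 and 0 with G-NHX9-midi-21FGAA and 5 and 1 with G-NHX9-DDNA. In the groups with higher levels of the 8 genes, mast cell and basophil markers were 4, 5 and 0 of 11 higher with G-NHX9-21FGAA, G-NHX9-midi-21FGAA and G-NHX9-DDNA, and megakaryocyte markers 3, 0 and 0 of 12 higher. In the same order eosinophil markers were 1, 1 and 2 of 9 higher. Neutrophil markers were 4, 0 and 6 of 14 higher and 2, 2 and 2 lower. The part of these cell types in the results was not tested.

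**Figure D5:**
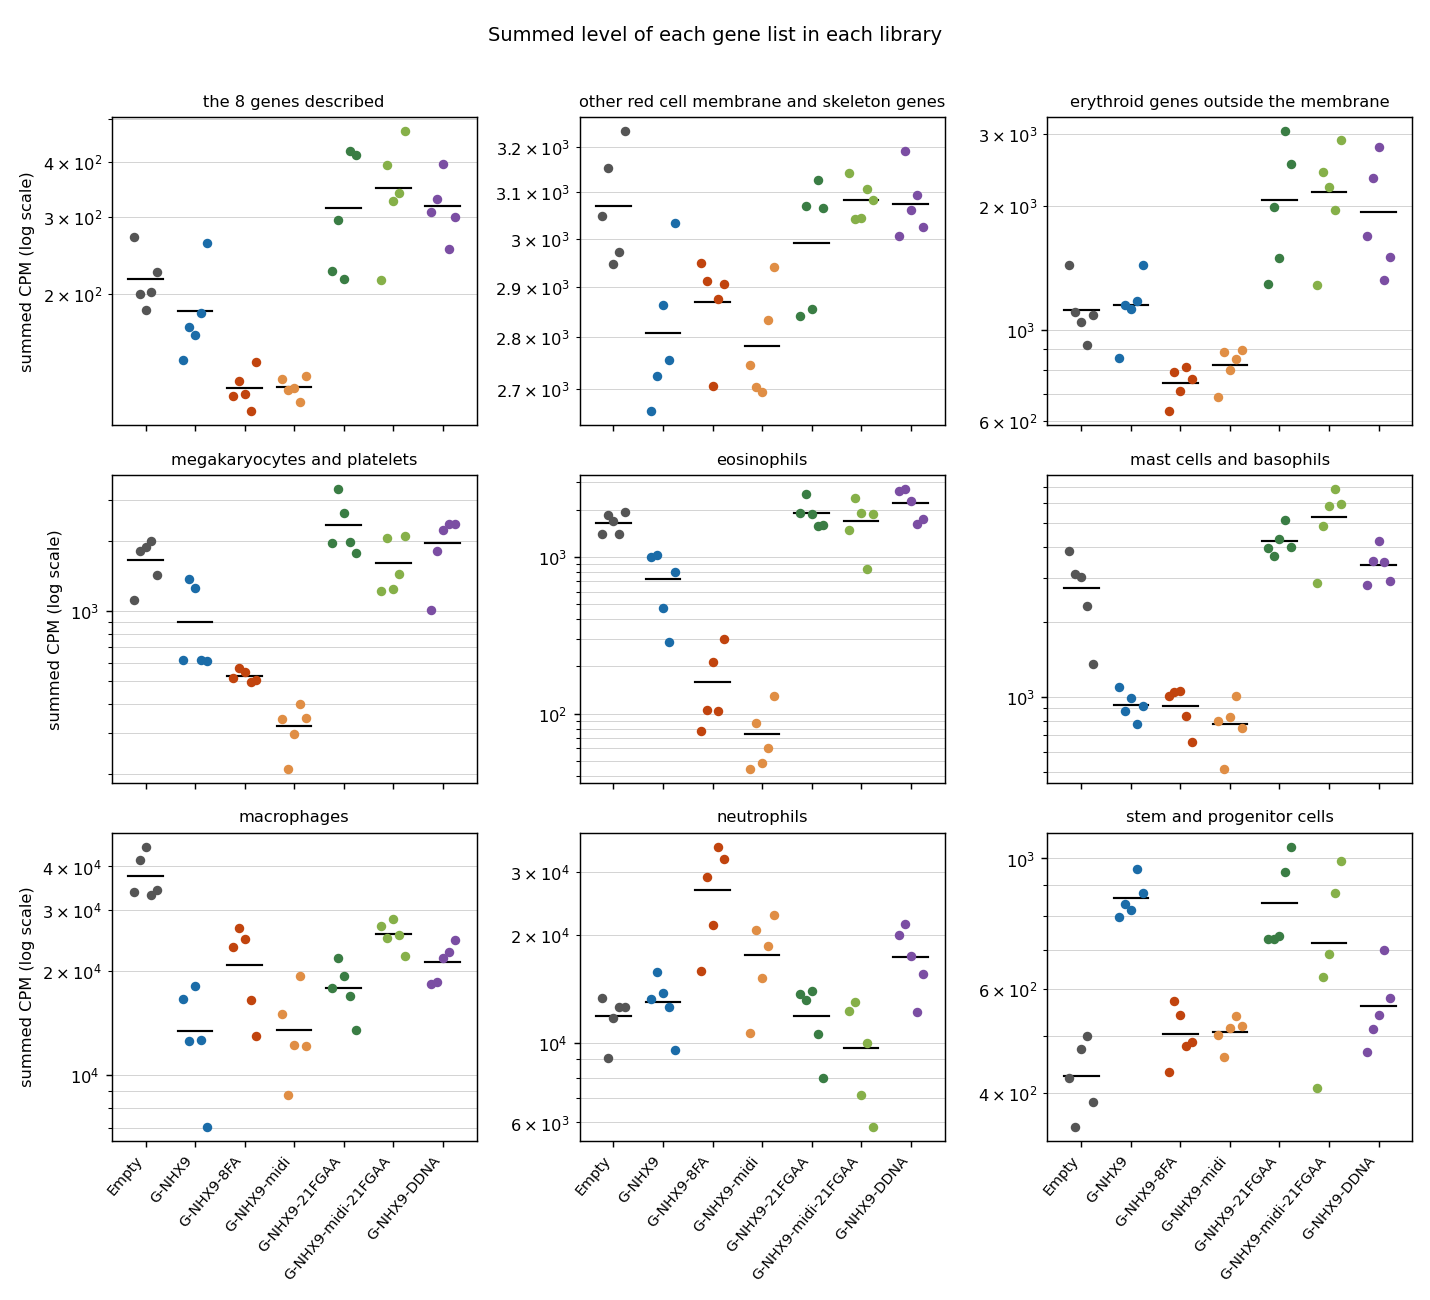
Summed CPM of each gene list in each library on logarithmic axes with separate ranges, by group, with points in the order of the replicate number and a line at each mean. The 8 genes sum to 108.4 to 140.1 CPM with G-NHX9-8FA and 113.8 to 130.4 CPM with G-NHX9-midi, most of it Epb41, and to 184.5 to 270.5 CPM in Empty, and the erythroid, megakaryocyte and eosinophil lists are lowest in the same groups.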

How the data were processed

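Raw counts of reads per gene were deposited by the authors as whole numbers, not normalized. Their processing notes name STAR 2.7.0d, HTSeq 0.11.2, DESeq2 and the build mm10. The annotation and the strand setting of the counting are not given in the sources used here. Libraries were made with a stranded total RNA kit. The analysis used R 4.3.3 and its packages edgeR 4.0.16 (filterByExpr, TMM, a quasi-likelihood fit with a mean for each of 7 groups and 28 residual degrees of freedom), limma 3.58.1 and, as an alternative, DESeq2 1.42.0. Figures were drawn in Python 3.11.15 with matplotlib 3.10.9. The procedure was also run on counts simulated with the fitted spread and without a structure by replicate number. The outcome is not given here. Positions and exon lengths are from GENCODE M21, where 49412 identifiers (99.5%) were found without regard to version. Log2 CPM had a prior count of 2, and ratios a prior count of 0.5. Limits from counts cover counting error only.

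The 8 genes, the other lists and the rule for naming genes were chosen with earlier results of these data known. By that rule the 8 genes were named in every comparison. Of 2 related lists, the 3 highest and 3 lowest fold changes in G-NHX9-midi against Empty were named, with 7 genes set by name, and for likeness the 3 nearest genes. Some genes that the rule names are not reported here. The groups G-NHX9, G-NHX9-8FA, G-NHX9-midi, G-NHX9-21FGAA, G-NHX9-midi-21FGAA and G-NHX9-DDNA of the labels are the constructs that the study writes with NHA9. Whether the replicate number pairs libraries was checked on their deviations from the group means. Same-numbered libraries of different groups correlated at 0.232 on average, and differently numbered ones at -0.0571. All 5 pairs were over 0.1 in 6 of 13 comparisons (G-NHX9, G-NHX9-midi-21FGAA and G-NHX9-DDNA against Empty, G-NHX9-21FGAA and G-NHX9-DDNA against G-NHX9, and G-NHX9-21FGAA against G-NHX9-midi-21FGAA). The main tests did not use the replicate number in these or other comparisons. It entered as a block in an alternative fit only. The labels do not say what the number stands for. Alternatives were other scalings, filters, tests and fits, the replicate number as a block, and each library left out. No 2 libraries of a group agreed within sampling noise.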

Additional observations from a re-analysis of the deposited data

Results flagged for a closer look

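Within each group of 5 libraries, the gap between the lowest or highest library and its neighbour was divided by the range of log2 CPM. Among 56 combinations of gene and group, 3 were over the critical value of 0.71. Chance passes about 1 in 20 groups of this size. Slc4a1 in G-NHX9-midi-21FGAA had a ratio of 0.726, with replicate 1 at 29.7 CPM and the next library at 75.5 CPM. Rhd in the same group had 0.812, again with replicate 1 the lowest, at 2.62 CPM beside 8.34 CPM. Without this library the counts of genes called in the comparisons of G-NHX9-midi-21FGAA were the same, at 6 against Empty and 8 against G-NHX9-midi. Aqp1 in G-NHX9-DDNA had 0.718, with replicate 4 at 7.89 CPM beside 21.7 CPM. Without replicate 4 Aqp1 was higher than in G-NHX9 (adjusted p = 0.031, edgeR), and all 8 genes passed that comparison.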

How the results depend on the processing

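The log2 fold changes of the 8 genes were recomputed 1765 times, and 1658 kept their direction and side of the threshold or passed under neither setting. In 88 the call was lost and in 19 gained, and no called value changed sign. In 24 of the 1658 the sign differed with no call under either. Against Empty, the falls with G-NHX9-8FA and G-NHX9-midi were 7 to 8 genes under every alternative. Taking the replicate number as a block for pairing, 1 gene in place of 0 passed for G-NHX9 against Empty (Epb41), 4 in place of 5 for G-NHX9-21FGAA (Rhd lost, adjusted p = 0.079) and 4 in place of 3 for G-NHX9-DDNA (Ank1), and the block changed no other call. With G-NHX9-DDNA against Empty, 5 genes passed without TMM and 5 with a filter at a mean of 1 CPM. Without TMM the count also went from 5 to 7 for G-NHX9-21FGAA against Empty and from 7 to 5 for G-NHX9-DDNA against G-NHX9 (Ank1 and Sptb lost, adjusted p = 0.063 and 0.068). Fitted to 2 groups only, 3 genes passed for G-NHX9-21FGAA and 4 for G-NHX9-DDNA against G-NHX9. With each library left out in turn, the counts were 3 to 6 for G-NHX9-21FGAA, 4 to 6 for G-NHX9-midi-21FGAA and 0 to 6 for G-NHX9-DDNA against Empty, and 4 to 7 and 4 to 8 against G-NHX9. Causes were not tested. Without TMM the share of calls that were higher went from 52.5% to 75.4% for G-NHX9, 50.6% to 64.6% for G-NHX9-midi, 54% to 82.1% for G-NHX9-21FGAA, 56.7% to 83.1% for G-NHX9-midi-21FGAA and 57.3% to 82.5% for G-NHX9-DDNA against Empty, from 44.4% to 20% for G-NHX9-8FA against G-NHX9 and from 35.5% to 59.1% for G-NHX9-midi against G-NHX9-8FA, and the median of all genes shifted by up to 0.184. The calls in the list of 36 other membrane genes, 113 over the 6 comparisons with Empty, were 108 to 132 under the same settings, chosen for this list after seeing the data, and 101 to 122 with a library left out. In the low groups Epb42, Rhag and Rhd rest on at most 10 counts per library, which limits their folds.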

Other observations

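Replicates 4 and 5 were the lowest libraries of their group for Aqp1 in 4 of 7 groups (Empty, G-NHX9-21FGAA, G-NHX9-midi-21FGAA and G-NHX9-DDNA) and the highest in 2 (G-NHX9-8FA and G-NHX9-midi). For Slc4a1 they were the lowest in 1 (G-NHX9-DDNA) and the highest in 3 (G-NHX9, G-NHX9-21FGAA and G-NHX9-midi-21FGAA). Ank1 had them highest in 4 groups, Sptb and Epb41 in 3, and Epb42, Rhag and Rhd in 2. In G-NHX9-DDNA they were the lowest for Ank1, Sptb, Epb42, Rhag and Rhd as well, and in Empty for Rhd, so that Rhd had them highest in 2 groups and lowest in 2. The labels give an age of 9 and 10 weeks for these replicates in Empty and of 8 weeks in every other group. This pattern was noticed in the data and carries no test.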
